A study of Rattus norvegicus with 10 samples.

Results

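The genes described here encode the mitochondrial pyruvate carrier, the pyruvate dehydrogenase complex with its kinases and phosphatases, the enzymes of the tricarboxylic acid (TCA) cycle, and 3 cytosolic relatives of those enzymes. They were chosen by name, as 32 gene symbols, by a rule that uses no measured value but was set with earlier results of these data known, from the 39784 gene names in the RNA-seq tables. All 32 were found, each on 1 entry, and all 32 had a mean of at least 1 TPM (a transcript level per length, with an equal total in each library), so all entered the test. The series compared forms of the transcriptional coactivator YAP in wild-type neonatal rat cardiomyocytes, the beating muscle cells of the heart, and this account uses its 4 RNA-seq libraries out of 10 samples.

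The first group, YAP5SA, held 2 libraries from cells given the construct labelled Ad-Xon-YAP5SA. YAP5SA is a YAP made active by serine-to-alanine changes at the sites where Hippo kinases phosphorylate it. The second group, YAP5SA-S94A, held 2 libraries from cells given Ad-Xon-YAP5SA-S94A, which has the same changes and also S94A, a substitution that impairs binding to TEAD transcription factors. Both groups therefore carried an activated YAP, and no RNA-seq library of GFP or untreated cells was used here. The values thus compare the forms with each other, and the level in cells without either form is unknown. The labels call the libraries biological replicates without saying whether they came from separate isolations. The p-values set a difference against the spread between libraries, partly shared across genes, and that spread may not be one between isolations. All cells were grown in M199 medium with 10% serum. The comparison addresses which expression changes go with the ability of activated YAP to bind TEAD.

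Pyruvate made by glycolysis enters mitochondria through a carrier of paired subunits, MPC1 and MPC2. The pyruvate dehydrogenase complex then turns it into acetyl-CoA, which citrate synthase joins to oxaloacetate as the TCA cycle begins. Pyruvate dehydrogenase kinases switch the complex off by phosphorylating its alpha subunit, and dedicated phosphatases switch it back on. The cycle yields NADH and, through succinate dehydrogenase, reduced ubiquinone for the respiratory chain, and heart muscle, whose oxidative metabolism expands after birth, is rich in its enzymes.

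By direction alone, 24 of the 32 transcripts were lower in the form that binds TEAD and 8 were higher. Members of several enzyme families moved apart. A gene is said to have risen, fallen or been called when its limma adjusted p, over all 13420 tested genes, lay under 0.05. Log2 fold changes are taken on log2(TPM + 1), with YAP5SA-S94A subtracted from YAP5SA, and understate changes of low genes. Of the 32 genes 16 fell and 4 (12.5%) rose in YAP5SA, where 15.5% of all tested genes fell and 17.4% rose. Together 20 of 32 were called, against 32.9% of all tested genes. The median log2 fold change was −0.38 over the 32 genes and below 0.001 in size over all tested genes. The 2 groups of libraries did not overlap in 29 of the 32, where 68.2% of tested genes showed no overlap, and in 22 of them both YAP5SA libraries lay below, against 33.8% of tested genes. A fall or rise of at least 1 on the log2 scale was called in 4 of the 32 (12.5%), where 12% of tested genes reached that size. The share with large changes was thus near the background, and the share that fell was above it. This background is not matched for transcript level. Among genes with a mean of at least 5 TPM, 37.4% were called and 18% fell, and 16 of the 32 fell in that fit. With 2 libraries per group the smallest two-sided p of an exact permutation test is 0.333, and limma reaches smaller values by sharing the spread across genes. Without YAP5SA-S94A replicate 1, and also without YAP5SA-S94A replicate 2, 11 members fell, 2 rose and 13 of the 20 calls were kept, while 22.5% of all tested genes were called. In each such fit 1 library stands for its group and is assumed to vary like the other group. The 2 libraries of that other group give the only residual degree of freedom. The spread used came almost wholly from the prior shared across genes, with 1032 and 258 prior degrees of freedom. With all libraries these were 5.09, and without either YAP5SA library 3.39. A call lost there need not be a smaller difference: the log2 fold change of Dlat was 0.42 and 0.37 in these fits, against 0.40 with all libraries.

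**Figure D1:**
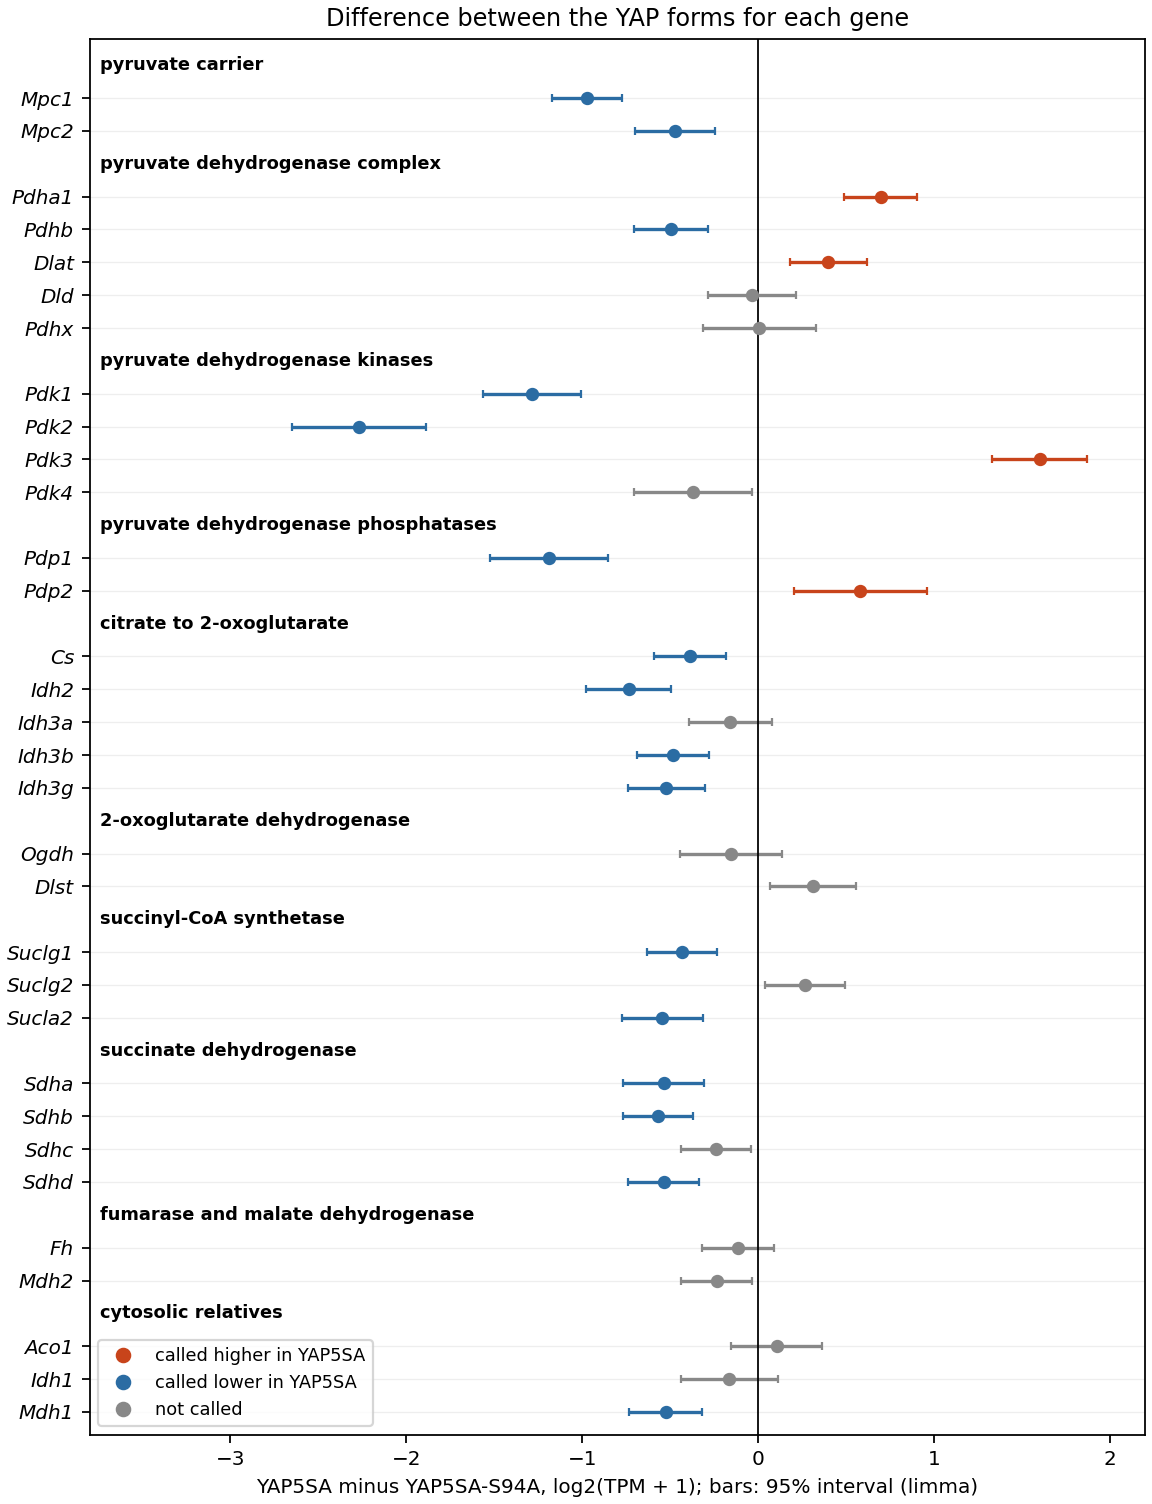
Difference of each of the 32 genes between the YAP forms (x axis, YAP5SA minus YAP5SA-S94A in log2(TPM + 1)) with the 95% interval from limma, grouped by role, with colours for called higher, called lower and not called. Pdk2 lies farthest to the left at −2.27 and Pdk3 farthest to the right at 1.60, and most other points lie between −1 and 0.

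These were abundant transcripts. The median of the 32 mean levels was 207 TPM, against 18.8 TPM over all tested genes, and 25 of the 32 averaged at least 100 TPM over the 4 libraries. Idh2, at 691 TPM, ranked 212 among 13420 genes and Mdh2, at 671 TPM, ranked 219. The genes below that level were Pdk1, Pdk3, Pdk4, both phosphatases, Pdhx and Aco1, with Pdk4 at 14.8 TPM and Pdp2 at 10.4 TPM. The 32 genes together made up 0.681% and 0.678% of all TPM with YAP5SA, against 0.874% and 0.855% with YAP5SA-S94A.

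The tables corresponded to 4.02 to 5.10 gigabases of aligned sequence per library, with the number of reads behind a gene unknown. Transcripts of the mitochondrial chromosome made up 7.53% and 10.2% of all TPM with YAP5SA, against 12.6% and 14.03% with YAP5SA-S94A. Of the 8 cardiomyocyte markers, all present, 7 were called lower. Actn2 went the other way without being called, at 851 and 737 TPM in YAP5SA against 651 and 652 (log2 fold change 0.28, limma adjusted p = 0.067). The 8 markers summed to 8805 to 9077 TPM against 14372 to 14465. Much of that sum was Tnnt2, at 5811 and 6323 TPM against 7996 and 8190. Fibroblast markers summed to 6748 to 8527 TPM against 6888 to 7243, with 2 of 8 called lower. Leukocyte markers summed to 528 to 547 against 826 to 832, with 5 of 6 tested, 3 of them lower and 1 higher. Much of the leukocyte sum was Lyz2, at 438 and 428 TPM against 714 and 710. Csf1r was the leukocyte marker called higher, at 38.2 and 37.5 TPM against 14.6 and 12.9. Smooth muscle and pericyte markers summed to 5095 to 5229 TPM against 656 to 680, with 2 of 6 higher, and to 268 to 303 against 213 to 225 without Acta2. Epicardial markers (3 of 5 higher) summed to 75.7 to 90.9 against 36.1 to 40.6 TPM. Their higher sum rested on Upk3b, at 22.4 and 18.2 TPM against 0.611 and 0.544, and Krt19, at 41.5 and 33.0 against 7.54 and 7.15. Wt1 and Upk1b went the other way without being called. Wt1 stood at 2.63 and 2.27 TPM against 3.10 and 2.83, and Upk1b at 20.7 and 18.3 against 27.4 and 23.5. Of the endothelial markers 5 of 6 were tested (1 higher, 1 lower), and all 6 summed to 23.8 to 26.4 against 34.8 to 35.3. The lower endothelial sum rested on Kdr, at 3.97 and 3.33 TPM against 21.3 and 19.9. Tek was the endothelial marker called higher, at 10.2 and 13.0 TPM against 3.57 and 3.79. Of 4 adipocyte markers Adipoq, Plin1 and Ucp1 were listed at 0 in every library, and Fabp4, which endothelial cells also express, fell to 93.0 and 91.8 TPM against 151 and 158 (log2 fold change −0.74, limma adjusted p = 0.00121). The part of these shifts in the results below was not tested, and in bulk RNA fewer cells of a type and less RNA per cell cannot be told apart.

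**Figure D2:**
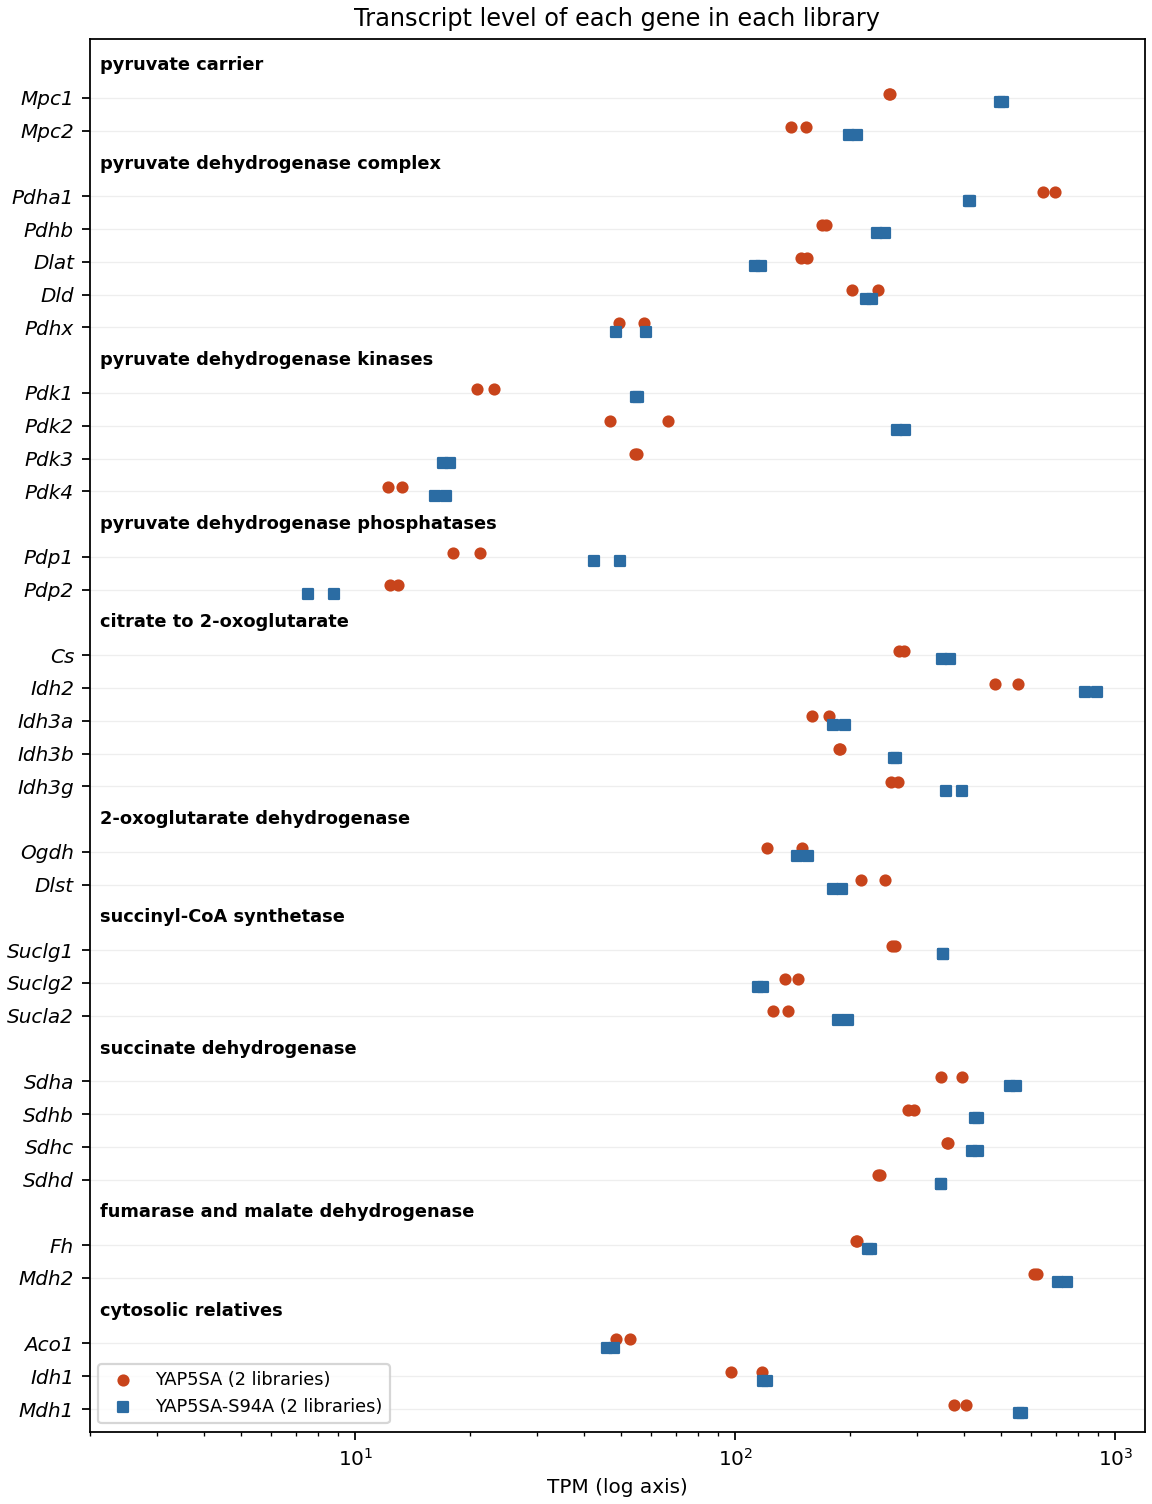
Level of each gene in each library (x axis, TPM on a log axis; circles YAP5SA, squares YAP5SA-S94A, 2 libraries each), grouped by role. The squares lie to the right of the circles for most enzymes, and the order is turned for Pdha1, Dlat, Pdk3, Pdp2, Dlst, Suclg2 and Aco1.

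The kinases of pyruvate dehydrogenase showed the largest differences of the set and did not move together. Pdk2, the most widely expressed isoform (chromosome 10, 79972550 to 79987074, rn7), stood at 66.7 and 46.9 TPM in YAP5SA and at 281 and 267 TPM in YAP5SA-S94A. Both YAP5SA libraries thus lay far below both others, and the means differed 4.82-fold (log2 fold change −2.27, SE 0.16, limma adjusted p = 9.55e-05). Pdk3, the isoform best known from testis and some tumours (chromosome X, 58486699 to 58553533), went the other way. It stood at 54.6 and 55.0 TPM in YAP5SA against 17.8 and 17.1, a 3.15-fold higher mean (log2 fold change 1.60, SE 0.11, limma adjusted p = 9.78e-05). Pdk1, a target of the hypoxia factor HIF-1 (chromosome 3, 56705824 to 56733040), stood at 21.0 and 23.2 TPM against 54.9 and 55.6. Its fall of 1.29 on the log2 scale (SE 0.12, limma adjusted p = 2.93e-04) left no overlap between the groups. Pdk4, which fasting and fatty acids induce through PPAR receptors, was the least abundant kinase in YAP5SA and lay close to Pdk3 in YAP5SA-S94A. It stood at 12.2 and 13.3 TPM against 16.2 and 17.3 and was not called (log2 fold change −0.37, 95% interval −0.70 to −0.037, limma adjusted p = 0.0854). Leaving the mitochondrial chromosome out gave a call of lower for Pdk4 (adjusted p = 0.0498).

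Because TPM is a level per length, the isoforms can be set beside each other. Pdk2 made up 75.9% and 74.8% of the summed kinase level in YAP5SA-S94A, and 43.2% and 33.9% in YAP5SA. Pdk3 made up 4.81% and 4.78% in YAP5SA-S94A and 35.3% and 39.7% in YAP5SA. The 2 isoforms were therefore near equal in YAP5SA, with a ratio of Pdk3 to Pdk2 of 0.818 and 1.17, against 0.0633 and 0.0639 in YAP5SA-S94A. Pdk1 kept a like share in both groups, at 13.6% and 16.8% against 14.9% and 15.6%. The summed level of the 4 kinases was 155 and 138 TPM in YAP5SA against 369 and 357 TPM, so the rise of Pdk3 was smaller in TPM than the fall of Pdk2. Pdk2 overlaps a gene on the opposite strand that was listed at 0 in all 4 libraries.

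The stretches of 250 bases before the annotated start of Pdk2 and Pdk3 are shown because these isoforms moved farthest, in opposite directions. They come from RefSeq, build GRCr8, a later build than that of the tables, and are written in lower case because neither holds either motif searched (below).
Pdk2 promoter, chr10:80483913-80484162, minus strand: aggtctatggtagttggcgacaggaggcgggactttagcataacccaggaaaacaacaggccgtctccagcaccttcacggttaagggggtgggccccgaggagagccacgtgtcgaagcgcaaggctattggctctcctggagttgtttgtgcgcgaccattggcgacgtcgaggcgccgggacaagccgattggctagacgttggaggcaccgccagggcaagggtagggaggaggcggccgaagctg
Pdk3 promoter, chrX:62547372-62547621, minus strand: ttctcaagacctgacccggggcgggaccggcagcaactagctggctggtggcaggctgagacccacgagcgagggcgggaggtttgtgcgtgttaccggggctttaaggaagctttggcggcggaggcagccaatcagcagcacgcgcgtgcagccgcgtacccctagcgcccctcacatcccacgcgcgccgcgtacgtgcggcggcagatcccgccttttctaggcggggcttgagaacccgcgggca

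The phosphatases that oppose the kinases also parted. Pdp1, the calcium-stimulated phosphatase of muscle (chromosome 5, 25446843 to 25455107), stood at 18.1 and 21.3 TPM in YAP5SA against 49.9 and 42.5. It fell by 1.19 on the log2 scale (SE 0.14, limma adjusted p = 9.59e-04), with no overlap between the groups. Pdp2, the calcium-insensitive phosphatase (chromosome 19, 386408 to 394068), stood at 12.4 and 12.9 TPM against 8.79 and 7.52 (log2 fold change 0.58, SE 0.16, limma adjusted p = 0.0303). Pdp1 supplied 85.0% of the summed phosphatase level in both YAP5SA-S94A libraries, and 59.3% and 62.2% in YAP5SA. The call of Pdp2 was lost with no filter on low genes (adjusted p = 0.0781), without YAP5SA replicate 2 (0.0687) and without YAP5SA-S94A replicate 1 (0.0883) or 2 (0.267). The summed phosphatase level was 30.4 and 34.2 TPM against 58.6 and 49.97, and the summed kinase level exceeded it 5.08- and 4.05-fold in YAP5SA and 6.30- and 7.14-fold in YAP5SA-S94A.

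**Figure D3:**
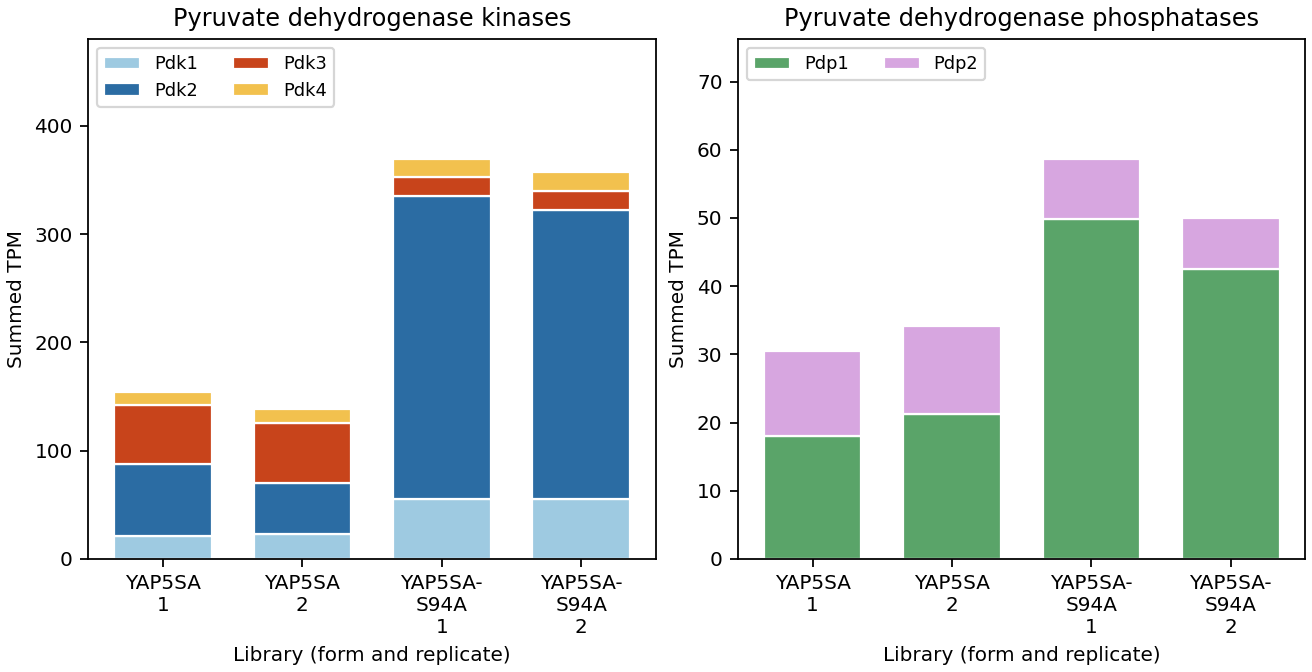
Stacked TPM of the pyruvate dehydrogenase kinases (left, y axis in summed TPM from 0) and phosphatases (right, the same unit on its own scale) in each of the 4 libraries. The dark blue Pdk2 block shrinks from 281 and 267 TPM in YAP5SA-S94A to 66.7 and 46.9 TPM in YAP5SA, while the red Pdk3 block grows from 17.8 and 17.1 TPM to 54.6 and 55.0 TPM.

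The subunits of the pyruvate dehydrogenase complex split into genes that rose, fell and were not called. Pdha1, the alpha subunit of the decarboxylase and the site that the kinases phosphorylate (chromosome X, 34700481 to 34714309), rose from 411 and 415 TPM in YAP5SA-S94A to 647 and 693 TPM in YAP5SA. The log2 fold change was 0.70 (SE 0.087, limma adjusted p = 0.00114), and both YAP5SA libraries lay above both others. Pdhb, the beta subunit of the same heterotetramer (chromosome 15, 16752561 to 16758503), went down, at 169 and 174 TPM against 248 and 236 (log2 fold change −0.49, SE 0.089, limma adjusted p = 0.00573). Alpha exceeded beta 3.82- and 3.99-fold in the YAP5SA libraries and 1.66- and 1.76-fold in the YAP5SA-S94A libraries. Dlat, the acetyltransferase that forms the core (chromosome 8, 50979151 to 51004435), rose from 117 and 113 TPM to 149 and 154 TPM (a log2 fold change of 0.40 with SE 0.092, limma adjusted p = 0.0155). Dld, the dihydrolipoamide dehydrogenase that the complex shares with 2-oxoglutarate dehydrogenase, stood at 203 and 238 TPM against 221 and 229. Its groups overlapped (log2 fold change −0.035, 95% interval −0.28 to 0.21, limma adjusted p = 0.83). Pdhx, which anchors Dld to the core, also overlapped, at 57.7 and 49.4 TPM against 58.2 and 48.6 (0.0061, interval −0.31 to 0.33, limma adjusted p = 0.978).

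The call of Dlat was lost without an intensity trend (limma adjusted p = 0.0624) and without YAP5SA-S94A replicate 1 (0.12) or 2 (0.19). That of Pdhb was lost without YAP5SA-S94A replicate 1 (0.0819). Pdha1 was called higher in each of the 14 alternatives run, with log2 fold changes from 0.62 to 0.75. It overlaps Map3k15, a gene on the opposite strand at 0.892 TPM, over 1160 bases, and whether the counting used strand was not stated.

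Both subunits of the mitochondrial pyruvate carrier fell, Mpc1 more than Mpc2. Mpc1 (chromosome 1, 52437745 to 52449399) stood at 255 and 254 TPM in YAP5SA against 506 and 497 TPM, a 1.97-fold difference of the means (log2 fold change −0.97, SE 0.084, limma adjusted p = 2.30e-04). Mpc2 (chromosome 13, 77728176 to 77747664) stood at 140 and 154 TPM against 199.5 and 209 TPM (−0.48, SE 0.096, limma adjusted p = 0.00908). The groups overlapped for neither subunit. Since Mpc1 fell further, the level of Mpc1 over that of Mpc2 was 1.83 and 1.65 in YAP5SA against 2.53 and 2.38 in YAP5SA-S94A. The call of Mpc2 was lost without YAP5SA-S94A replicate 2 (adjusted p = 0.0989).

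In the first span of the cycle, from acetyl-CoA to 2-oxoglutarate, 4 of 5 mitochondrial genes fell and none rose. Idh2, the NADP-dependent isocitrate dehydrogenase that supplies mitochondrial NADPH (chromosome 1, 134038644 to 134057969), fell the most of these. It stood at 555 and 483 TPM in YAP5SA against 896 and 831 TPM (a log2 fold change of −0.74 with SE 0.10, limma adjusted p = 0.00179). Cs, citrate synthase, the enzyme of entry and a common marker of mitochondrial content, stood at 278 and 270 TPM against 368 and 349 (−0.39, SE 0.087, limma adjusted p = 0.0137). This call was lost without an intensity trend (limma adjusted p = 0.0678) and without YAP5SA-S94A replicate 1 (0.202) or 2 (0.103).

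The NAD-dependent isocitrate dehydrogenase is built from a catalytic alpha subunit and the beta and gamma subunits. Its transcripts did not fall evenly. Idh3b stood at 187 and 189 TPM against 262 and 264 (log2 fold change −0.48, limma adjusted p = 0.00543), and Idh3g at 268 and 257 TPM against 396 and 359 (−0.52, limma adjusted p = 0.00542). For both, the YAP5SA libraries lay below the others. Idh3a, the catalytic subunit, stood at 160 and 176 TPM against 180 and 195 TPM and was not called (−0.16, 95% interval −0.40 to 0.076, limma adjusted p = 0.261). Idh3b was no longer called without YAP5SA-S94A replicate 1 (adjusted p = 0.0547) or 2 (0.0667), nor Idh3g without YAP5SA-S94A replicate 1 (0.0788). Idh2 made up 47.5% and 43.7% of the summed level of the mitochondrial isocitrate dehydrogenase genes in YAP5SA and 51.7% and 50.4% in YAP5SA-S94A.

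The 2-oxoglutarate dehydrogenase genes were not called in either direction. Ogdh, the decarboxylase, stood at 150.0 and 121 TPM in YAP5SA against 146 and 155 TPM, with overlapping groups (log2 fold change −0.15, 95% interval −0.44 to 0.14, limma adjusted p = 0.378). It was called lower without YAP5SA replicate 1 (adjusted p = 0.0364). Dlst, the succinyltransferase core, stood at 247 and 215 TPM against 180 and 191 TPM (0.31, interval 0.068 to 0.56, limma adjusted p = 0.0563), and the groups did not overlap. Dlst was called higher in 5 of the 14 alternatives, with adjusted p down to 0.0156 without YAP5SA replicate 2, and adjusted p over all 14 ran up to 0.361.

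Succinyl-CoA synthetase pairs an alpha subunit with either of 2 beta subunits, which decide whether ATP or GTP is made. Suclg1, the shared alpha subunit, stood at 259 and 263 TPM in YAP5SA against 353 and 351 (log2 fold change −0.43, limma adjusted p = 0.00788). Sucla2, the ATP-forming beta subunit, stood at 126 and 138 TPM against 187 and 199 (−0.54, limma adjusted p = 0.00547). Suclg2, the GTP-forming beta subunit, stood higher in both YAP5SA libraries, at 135 and 146 TPM against 114 and 119, without being called (0.27, 95% interval 0.041 to 0.49, limma adjusted p = 0.0716). Suclg2 made up 51.7% and 51.5% of the beta subunit transcripts in YAP5SA and 38.0% and 37.4% in YAP5SA-S94A. Suclg1 was not called without YAP5SA-S94A replicate 1 (adjusted p = 0.1003) or 2 (0.0942), nor Sucla2 without YAP5SA-S94A replicate 2 (0.0565), while Suclg2 was called higher without YAP5SA replicate 1 (0.0255).

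Succinate dehydrogenase, which is also complex II of the respiratory chain, had 3 of its 4 genes lower in YAP5SA, by similar amounts. Sdha, the flavoprotein, stood at 396 and 347 TPM in YAP5SA against 549 and 528 (log2 fold change −0.54, SE 0.098, limma adjusted p = 0.00586). Sdhb, the iron-sulfur subunit, stood at 286 and 295 TPM against 428 and 435 (−0.57, SE 0.085, limma adjusted p = 0.00246). Sdhd, a membrane anchor, stood at 238 and 241 TPM against 348 in both others (−0.54, SE 0.085, limma adjusted p = 0.00313). These 3 genes were called lower in all 14 alternatives run, each without overlap of the groups. Sdhc, the other membrane anchor, stood at 360 and 362 TPM against 434 and 420. It was not called (−0.24, 95% interval −0.44 to −0.042, limma adjusted p = 0.0661). It was called lower in 4 alternatives: quantile normalization (adjusted p = 0.0395), the mitochondrial chromosome left out (0.0211), and without YAP5SA replicate 1 (0.042) or 2 (0.0426).

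Sdhd and Dlat are near neighbours that moved in opposite directions. Both lie on the minus strand of chromosome 8 with 24.9 kb between them, Sdhd at 50944702 to 50954298 and Dlat from 50979151. Sdhd fell by 0.54 on the log2 scale in YAP5SA, and Dlat rose by 0.40.

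Of the last steps of the cycle and the cytosolic relatives, only Mdh1 was called. Fh, fumarase, stood at 209 and 208 TPM in YAP5SA against 228 and 224 TPM (log2 fold change −0.12, 95% interval −0.32 to 0.087, limma adjusted p = 0.342). Mdh2, the mitochondrial malate dehydrogenase, stood at 622 and 610 TPM against 746 and 706 (−0.24, interval −0.44 to −0.035, limma adjusted p = 0.0734). Mdh2 was called lower with quantile normalization (adjusted p = 0.0175), without the mitochondrial chromosome (0.0196) and without YAP5SA replicate 1 (0.0455). Mdh1, the cytosolic malate dehydrogenase of the malate-aspartate shuttle (chromosome 14, 95630625 to 95645920), stood at 376 and 405 TPM against 568 and 557. It fell by 0.53 on the log2 scale (SE 0.088, limma adjusted p = 0.00405), a call kept in all 14 alternatives.

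Aco1, the cytosolic aconitase that doubles as an iron-regulatory protein, stood at 52.9 and 48.4 TPM against 46.0 and 48.0 (log2 fold change 0.10, 95% interval −0.16 to 0.37, limma adjusted p = 0.506). Idh1, the cytosolic NADP-dependent isocitrate dehydrogenase, stood at 97.4 and 117 TPM against 118 and 121 (−0.16, interval −0.44 to 0.11, limma adjusted p = 0.319). In both cases the groups did not overlap but nearly touched. Idh1 was called lower without YAP5SA replicate 2, its higher YAP5SA library (adjusted p = 0.0336). Entries named as pseudogenes of the 32 genes had almost no signal: 9 of 11 were listed at 0 in every library, and the other 2, of Dld and Sdhd, stayed at or below 0.413 TPM.

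A wider list of genes around pyruvate and the cycle, with 37 of 38 names in the tables and 35 tested, leaned the same way. In YAP5SA 13 of the 35 fell and 4 rose (15.5% and 17.4% of all tested genes), with a median log2 fold change of −0.36. Without YAP5SA-S94A replicate 1 the number that fell was 8, and 2 rose without YAP5SA-S94A replicate 2, with no filter or without the mitochondrial chromosome. Ldhb, the lactate dehydrogenase subunit that prevails in heart, stood at 934 and 863 TPM against 2005 and 1962 (−1.14, SE 0.089, limma adjusted p = 1.38e-04). Nnt, the transhydrogenase that makes mitochondrial NADPH, stood at 234 and 230 TPM against 455 and 475 (limma adjusted p = 2.26e-04). Adhfe1, which oxidises hydroxybutyrate with 2-oxoglutarate, fell by 1.58 on the log2 scale, from 29.0 and 25.7 to 9.65 and 7.44 TPM.

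Genes of the wider list that rose included ones that act on citrate, lipoate and lactate. Acly, which splits citrate in the cytosol for lipid synthesis, stood at 94.5 and 82.7 TPM in YAP5SA against 54.2 and 48.9 (0.77, limma adjusted p = 0.00272). Lipt2, which attaches the octanoyl precursor of lipoate, stood at 4.53 and 6.67 TPM against 2.66 and 3.05 (0.76, limma adjusted p = 0.0431). Ldha, the lactate dehydrogenase subunit that prevails in skeletal muscle, stood at 1592 and 1654 TPM against 1349 and 1333 (0.27, limma adjusted p = 0.0435). The call of Ldha was lost in 9 of the 14 alternatives, with adjusted p up to 0.384. That of Lipt2 was lost in 6 of the 13 that tested it, with adjusted p up to 0.161. The ratio of Ldha to Ldhb was 1.704 and 1.92 in the YAP5SA libraries and 0.673 and 0.679 in the YAP5SA-S94A libraries. Pdha2, the testis form of the alpha subunit, and Pck1, the cytosolic phosphoenolpyruvate carboxykinase, were listed at 0 in every library.

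**Figure D4:**
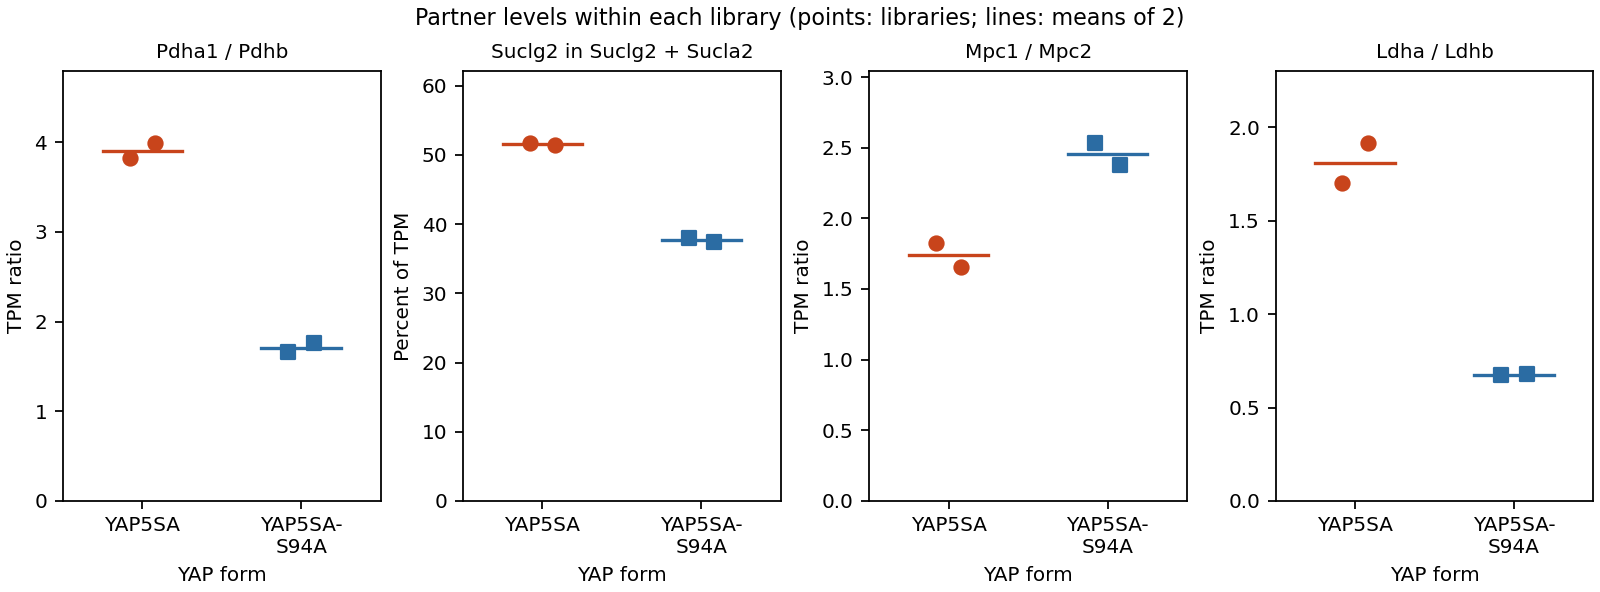
Ratios of partner genes within each library (y axes from 0: TPM ratio of Pdha1 to Pdhb, percent of Suclg2 in Suclg2 plus Sucla2, TPM ratio of Mpc1 to Mpc2 and of Ldha to Ldhb), with points for libraries and lines for the means of 2. The YAP5SA points lie above the YAP5SA-S94A points in 3 panels and below them for Mpc1 over Mpc2, at 1.83 and 1.65 against 2.53 and 2.38.

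Promoter windows, from 250 bases before to 50 bases after the annotated start, were found for 29 of the 32 genes in the RefSeq table of build GRCr8. Idh3a, Pdp1 and Pdp2 were not among them. The windows had a median GC content of 62.3%, against 51.7% over all 33469 windows in the table. The core of the TEAD motif, GGAATG or its reverse complement CATTCC, stood in 3 of the 29 windows (Mdh1, Mdh2 and Suclg1), and in 14.2% of all windows. The core of the motif of estrogen-related receptors, AAGGTCA or TGACCTT, stood in 1 of the 29 (Sdhd), and in 4.61% of all windows. No window held both motifs, and a match describes the letters only. The matches of Suclg1 and Sdhd lay after the start and are not shown. The 250 bases before the start of Mdh1, which fell, and of Mdh2, which was not called, are shown with the TEAD core in capitals, beginning 110 and 142 bases before the start.
Mdh1 promoter, chr14:99847228-99847477, minus strand: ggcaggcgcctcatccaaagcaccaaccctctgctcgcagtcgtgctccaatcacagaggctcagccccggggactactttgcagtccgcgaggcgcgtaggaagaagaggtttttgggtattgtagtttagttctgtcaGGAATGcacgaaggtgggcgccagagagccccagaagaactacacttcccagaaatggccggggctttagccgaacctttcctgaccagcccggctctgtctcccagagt
Mdh2 promoter, chr12:26543842-26544091, minus strand: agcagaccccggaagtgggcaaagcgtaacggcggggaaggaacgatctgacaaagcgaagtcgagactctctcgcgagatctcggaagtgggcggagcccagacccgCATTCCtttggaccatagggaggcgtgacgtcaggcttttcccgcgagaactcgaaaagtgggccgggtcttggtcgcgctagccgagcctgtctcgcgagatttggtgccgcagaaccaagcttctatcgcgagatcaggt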

How the data were processed

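RNA-seq was analysed in 4 libraries, 2 per YAP form, and the 6 CUT&RUN samples are not used. Per the labels, libraries were directional and from poly(A) RNA. The submitters' processing notes name fastp, HISAT2 2.2.1 and StringTie 2.2.1 and the build rn7, with no settings. TPM and FPKM values were computed by the authors, FPKM being a fixed multiple of TPM within a library. Coverage, per the file headers, is a signal per base of the gene without scaling for depth, and its highest ratio to FPKM gave the aligned gigabases.

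TPM was summed over entries sharing a gene name. The 13420 names with a mean of at least 1 TPM entered limma 3.58.1 (R 4.3.3) as log2(TPM + 1). The variance prior followed intensity, with 5.09 prior and 2 residual degrees of freedom, and Benjamini-Hochberg adjustment ran over all tested names. The method was first tested on simulated data. Members and lists were chosen with earlier results of these data known. Genes named are the 32 members and, of the wider list, up to 4 called genes per direction by p and those listed at 0 in every library; some of these are not reported here. Chromosome names came from majority matches to the RefSeq gene table, and all 32 members matched it. The motifs and the 14 alternatives are listed with their results. Figures were made with matplotlib 3.10.9 and tables with pandas 2.3.3 in Python 3.11.15.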

Additional observations from a re-analysis of the deposited data

How the results depend on the processing

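Over 14 alternatives, 11 of the 20 called members kept their call in all (Idh2, Sdha, Sdhb, Sdhd, Mdh1, Pdha1, Pdk1, Pdk2, Pdk3, Pdp1 and Mpc1), 9 lost it in at least 1, and 7 that were not called gained one. With all libraries kept, 15 to 19 members fell and 3 to 5 rose. Over all tested genes, the share that fell ran from 6.62% with no filter to 19.9% with the mitochondrial chromosome left out. The share that rose ran from 8.66% with no filter to 20.3% with the replicate numbers as a block. With no filter 16 members fell, and 19 did with the mitochondrial chromosome left out. The number that rose was 2 with calls at an adjusted p under 0.01, an alternative chosen after seeing the data. Leaving out 1 library at a time gave 11 to 19 members that fell, 2 to 5 that rose, 8 to 15 genes of the wider list that fell and 2 to 4 that rose, and 1312 to 2739 genes in all that fell. In the wider list 2 genes rose with no filter and with the mitochondrial chromosome left out. The median log2 fold change of the members was −0.39 with a pseudocount of 0.1 and with FPKM, −0.45 with the mitochondrial chromosome left out, −0.43 after quantile normalization, −0.37 with coverage scaled for depth (chosen after seeing the data) and −0.40 to −0.36 with 1 library left out. The direction of Dld turned without YAP5SA replicate 1 (0.078; range with 1 library left out −0.15 to 0.078). That of Pdhx turned with FPKM (−0.022), with the mitochondrial chromosome left out (−0.065), without YAP5SA replicate 1 (−0.10) and without YAP5SA-S94A replicate 2 (−0.12), with a range of −0.12 to 0.13 over the libraries left out. Over all tested genes the median log2 fold change was −0.066 with the mitochondrial chromosome left out and −0.044 after quantile normalization. With FPKM this all-gene median was −0.024, and in the main fit 1.48e-04. The cause of the turns was not tested.

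With the replicate numbers as a block, 16 members fell and 5 rose, and all 20 calls were kept. Over all genes 2726 rose and 2593 fell, against 2337 and 2083. The block uses the replicate numbers of the titles, while the sample descriptions number the libraries differently. The labels do not say that a number marks a shared isolation or day. The deviations of same-numbered libraries correlated at r = 0.101 across 13420 genes and at r = 0.158 across the 10618 with a mean of at least 5 TPM. With 2 pairs this does not show pairing, so the libraries are taken to share only a number. Genes called higher were 52.9% of all calls, 44.5% with the mitochondrial chromosome left out and 46.5% without YAP5SA replicate 1. The read number behind each TPM value is unknown, so no counting interval is given.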
